A study of Mus musculus with 12 samples.

Results

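The replication-dependent histone genes were followed through an in vitro model of mouse germ cell specification. The genes were taken by symbol: every gene in the deposited expression tables whose symbol starts with Hist1h, Hist2h, Hist3h or Hist4h and is not marked as a pseudogene by the suffix -ps. The rule found 52 genes among 21728 genes in any count file, and 51 of the 52 were listed in at least 1 library (Hist2h2ac in none). They comprise 6 genes for the linker histone H1, 13 for H2A, 12 for H2B, 9 for H3 and 12 for H4. By symbol, 45 belong to the Hist1 group on chromosome 13, 4 to the Hist2 group on chromosome 3 and 2 to the Hist3 group on chromosome 11. The last, Hist4h4, is on chromosome 6. The GENCODE M21 annotation (mm10) holds 69 symbols that match the rule, and the other 17 were not analysed here. It calls 51 of the 52 genes protein-coding and 1, Hist1h2al, a processed pseudogene. Hist1h2al lies at chr13:51202727-51203065, far from the other genes with a Hist1 symbol.

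DNA is wrapped around nucleosomes made of H2A, H2B, H3 and H4, with H1 on the linker between them. Most of this protein is made in S phase from clustered, mostly intronless genes, and unlike other mRNAs theirs normally end without a poly(A) tail. A conserved stem-loop near the 3′ end, bound by the stem-loop binding protein Slbp, takes the place of the tail, and Npat activates the genes when the cell enters S phase. A small share of the transcripts runs past the stem-loop and is polyadenylated, mainly in cells that leave the cycle or differentiate. A library made from mRNA through its poly(A) tail therefore samples these genes poorly.

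All cells were C57BL/6 with the Blimp1-mVenus; Stella-ECFP (BVSC) reporters, derived from embryonic stem cells grown in 2i plus LIF. Primordial germ cell-like cells (PGCLCs), sorted at day 5 as positive for both reporters, were sequenced after bisphenol A (BPA, 100 nM) and untreated. Epiblast-like cells (EpiLCs), their precursors, were sequenced after 48 h of culture, with 100 nM BPA added 24 h after seeding for 24 h, and untreated; the library names of the untreated EpiLCs read water. Each of the 4 groups has 3 libraries. The labels do not say whether PGCLCs met BPA themselves or only through their precursors. They also do not describe the 3 libraries of a group as independent cultures, so the spread behind each p-value may be technical. Library names follow a different scheme in BPA and in untreated PGCLCs, and another in EpiLCs, so a difference between those sets of libraries and the exposure or stage cannot be told apart.

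Libraries held 11785338 to 34309195 counts on genes, with EpiLC libraries the shallower. The count files leave out genes under 10 counts, so an unlisted gene had 0 to 9 counts. CPM is the count relative to the scaled library total, times 1e+06. In these libraries 9 counts were worth 0.2545 to 0.7405 CPM. All 9 germ cell markers, including the reporter genes Prdm1 and Dppa3, rose in PGCLCs against EpiLCs, whereas of 8 EpiLC markers 5 fell and 2 (Otx2 and Sox2) rose. Untreated EpiLC replicate 3 stood apart: 13.0% of its counts came from ribosomal protein genes, where the other 5 EpiLC libraries had 7.56% to 8.54%, and its label carries a replicate number other than that of its title. In BPA PGCLCs, replicate 3 differed more from replicates 1 and 2 (chi-square per gene 46.1 and 45.1) than those did from each other (3.76).

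The stem-loop is the feature that sets these genes apart, so its sequence is shown first. Each annotated transcript was searched for the histone stem-loop, which was found in 36 of 52 genes (69.2%), against 2.74% of 21901 protein-coding genes in the annotation. There were 8 distinct versions, of which 3 made up most. The 26 bases around the stem-loop are shown for the genes on which the results turn, with the stem-loop in capitals, from the mm10 transcripts on the strand of the gene (chromosome 13, and chromosome 6 for Hist4h4).
Hist1h1c: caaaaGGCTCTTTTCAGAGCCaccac
Hist1h1e: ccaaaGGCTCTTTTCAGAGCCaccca
Hist1h3c: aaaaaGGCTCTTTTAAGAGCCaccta
Hist1h3e: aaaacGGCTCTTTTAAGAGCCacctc
Hist1h4d: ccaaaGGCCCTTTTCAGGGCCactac
Hist1h4i: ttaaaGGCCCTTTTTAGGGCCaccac
Hist4h4: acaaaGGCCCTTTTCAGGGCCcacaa
The H1 pair shares 1 stem-loop, the H3 pair another, and the H4 genes carry versions with a different stem. The version of Hist1h1c was found in 17 genes, that of Hist1h3e in 6 and that of Hist1h4d in 6. Annotated transcripts rarely stop at the stem-loop: 1 ended within 20 bases of it, 15 ran on for 21 to 100 bases and 20 ran on for over 100, for example by 840 bases in Hist1h1c and 2445 in Hist4h4. The polyadenylation signal AATAAA stood in the last 40 bases of 10 transcripts. In the other 16 genes, among them Hist1h1a and Hist1h2bc, the stem-loop was not in the annotated transcript, which says only that these letters are not in that model.

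Near-identical copies limit what can be counted for a single gene. Of all 50-base stretches of a gene, a median of 48.2% also occurred in another gene over the 52, and 93.1% over the 17 matching symbols that were not analysed here. For 23 of the 52, at least 50% of the stretches were shared. Hist1h1a (0%), Hist1h1c (8.5%), Hist4h4 (8.5%) and Hist1h4d (10.2%) are nearly unique, whereas Hist1h2ai (90.1%), Hist1h4n (85.6%) and Hist1h3e (73.4%) share most of their sequence and their counts are uncertain. Exons of Hist1h1e overlap those of Hist1h2be on the same strand, and 14 genes overlap another gene on the other strand. The kit keeps strand, but whether the counting used it is not stated in the labels. Reads aligned to more than 1 place were recorded for all BPA PGCLC libraries (163810 to 212070 reads) and for BPA EpiLC replicate 2 (1448753 reads). No other library had such a record, so multiple alignments were not recorded alike in BPA and untreated PGCLCs. Ambiguous reads were 4.56% to 5.07% in BPA PGCLCs and 5.75% to 6.07% in untreated PGCLCs. The part of either in the histone counts was not tested.

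The genes were scarce in every library. Together they took 0.00278% to 0.00823% of the counts. The number listed was 33, 30 and 27 of 52 in BPA PGCLCs and 42, 41 and 36 in untreated PGCLCs. In EpiLCs it was 19, 11 and 24 with BPA and 22, 17 and 26 untreated. In PGCLCs, all of similar depth, every BPA library listed fewer of the genes than every untreated one, and 29 genes were listed in more untreated than BPA libraries, against 3 the other way. In EpiLCs the groups overlapped. Only 5 genes were listed in all 12 libraries, and 20 were listed in at least 1 PGCLC library but in no EpiLC library, whose limit of 10 counts stands at a higher CPM because they are shallower.

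**Figure D1:**
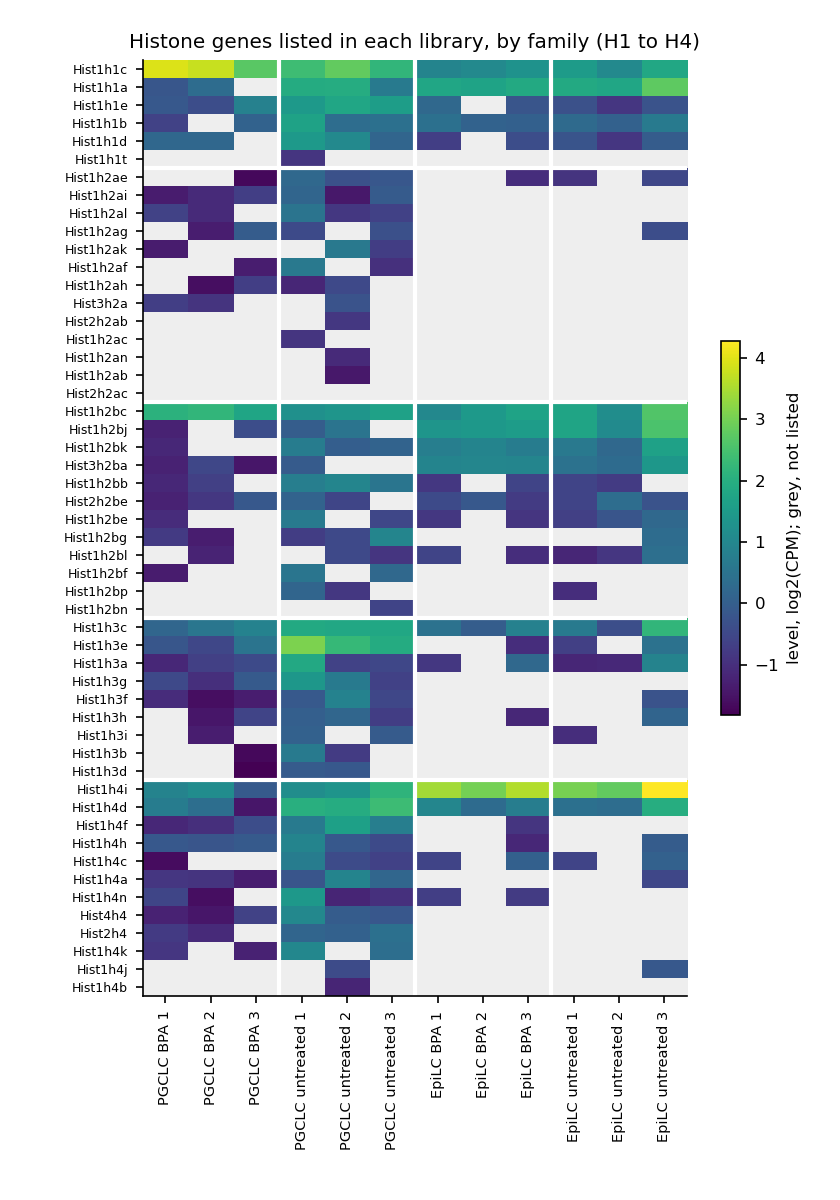
Level of each of the 52 genes (rows, ordered by family H1 to H4 and then by mean level) in the 12 libraries (columns), as log2 of CPM. Grey marks a library that does not list the gene, and Hist2h2ac is grey throughout. The untreated PGCLC columns are the fullest, with 42, 41 and 36 genes listed, and H2A genes are nearly blank in EpiLCs.

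The main result in PGCLCs was a lower summed level of histone transcripts after BPA. The sums of core histone genes did not overlap between the groups, and those of H1 genes overlapped through 1 gene, Hist1h1c. The sum over the 52 genes was 40.8, 37.4 and 28.9 CPM in BPA PGCLCs and 83.1, 65.4 and 55.6 CPM in untreated PGCLCs. The groups did not overlap, also when every unlisted gene was set to 9 counts in the BPA libraries and 0 in the untreated ones. The means were 35.7 ± 6.13 and 68.1 ± 13.9 CPM (SD, n = 3 each), a ratio of 0.525, or 0.585 with unlisted genes at 9 counts in both groups.

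By family, the median log2 change of the tested genes was negative in all 5: -1.39 for H1, -0.96 for H2A, -1.61 for H2B, -1.46 for H3 and -1.73 for H4. These medians cover the 41 genes that could be tested. Genes that entered only through their level in untreated cells had to be negative, so the medians do not speak for whole families. The core histone genes summed to 21.7, 20.5 and 19.5 CPM in BPA PGCLCs and 64.8, 47.7 and 44.0 CPM in untreated PGCLCs, a ratio of means of 0.394. All 3 BPA libraries lay close together and far below the lowest untreated one. The ratio was 0.294 for H3, 0.348 for H4 and 0.61 for H2B, each without overlap between the groups. For H2A it was 0.405, with groups that overlap once unlisted genes are allowed 0 to 9 counts. The H1 genes summed to 19.1, 16.9 and 9.44 CPM in BPA PGCLCs and 18.3, 17.8 and 11.6 CPM in untreated PGCLCs, which overlap, with a ratio of 0.952. Without Hist1h1c, set aside after its values were seen, the other H1 genes summed to 3.61, 3.19 and 2.88 CPM in BPA PGCLCs and 13.1, 10.7 and 7.04 CPM in untreated PGCLCs, which do not overlap, with a ratio of 0.314. Sums are given as a description with no p, since the genes were chosen with earlier results known. In these bulk samples, fewer cells of a type and less RNA per cell cannot be told apart.

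**Figure D2:**
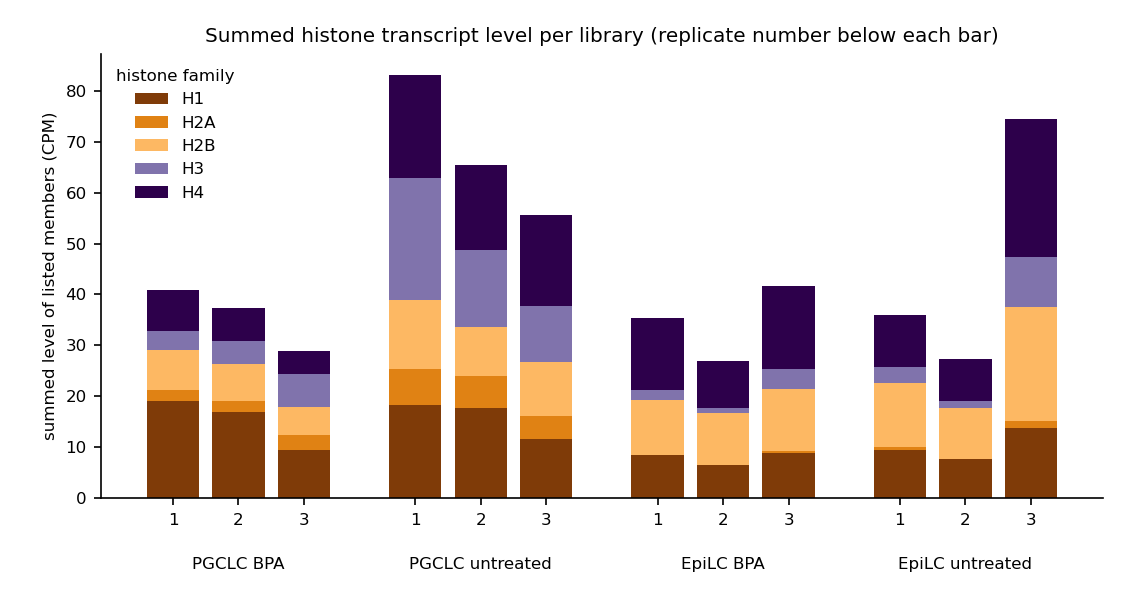
Summed level of the listed histone genes in CPM (vertical axis) in each of the 12 libraries, stacked by family. BPA PGCLC bars reach 28.9 to 40.8 CPM and untreated PGCLC bars 55.6 to 83.1 CPM, with H1 segments of similar height; untreated EpiLC replicate 3 reaches 74.4 CPM.

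Gene by gene, 3 of the 41 genes tested fell with BPA in PGCLCs at an adjusted p under 0.05 and 0 rose (edgeR quasi-likelihood, Benjamini-Hochberg over all genes). Over all 16753 genes tested, 5.72% fell and 8.13% rose, and 13.9% changed in either direction, so the number of single-gene calls is near the background. The log2 change was negative in 36 of the 41 and its median was -1.49, against 49.1% negative and a median of 0.01 over all genes tested. The other 11 genes, among them Hist1h1t and Hist2h2ac, were too low to test, and genes that entered only through their level in untreated cells had to be lower with BPA, so these counts describe the tested genes and not all 52. All 8 H3 and all 10 H4 genes tested had negative values, whereas H1, H2A and H2B held 1, 1 and 3 positive ones.

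Hist1h3e (ENSMUSG00000069273, chr13:23561534-23562369, minus strand), 1 of the H3 genes, changed most among the 3 called. Its level was 0.877, 0.698 and 1.44 CPM in BPA PGCLCs and 8.41, 4.82 and 3.82 CPM in untreated PGCLCs. The groups are far apart, with the lowest untreated library above the highest BPA one. The log2 change was -2.48 ± 0.42 (SE; adjusted p = 0.00985, edgeR quasi-likelihood). As 73.4% of its sequence stretches occur in other genes, its count is uncertain.

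Hist1h3c (chr13:23744973-23745602, minus strand), another H3 gene, had 1.14, 1.5 and 1.84 CPM in BPA PGCLCs and 3.70, 3.58 and 3.54 CPM in untreated PGCLCs. The untreated libraries were almost equal and all above the BPA ones, and the log2 change was -1.26 ± 0.32 (adjusted p = 0.0388, edgeR). Hist1h4d (chr13:23581598-23582735, plus strand), an H4 gene that shares little sequence, had 1.66, 1.30 and 0.368 CPM in BPA PGCLCs and 4.08, 3.86 and 5.16 CPM in untreated PGCLCs. Its groups did not overlap either, and its log2 change was -1.97 ± 0.52 (adjusted p = 0.0434, edgeR). The number of histone genes that fell was 0 without BPA replicate 1, 5 without BPA replicate 3 and 1 without each of the other 4 libraries.

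Among genes that were not called, several also had lower values with BPA. Hist1h4f, an H4 gene, had 0.455, 0.499 and 0.764 CPM in BPA PGCLCs and 1.59, 3.14 and 1.72 CPM in untreated PGCLCs. Hist4h4, the H4 gene outside the clusters, had 0.423, 0.366 and 0.650 CPM in BPA PGCLCs and 2.04, 0.964 and 0.892 CPM in untreated PGCLCs. Neither pair of groups overlaps, though neither gene passed the test. Hist1h3g, an H3 gene, had 0.715, 0.499 and 0.933 CPM in BPA PGCLCs and 2.65, 1.62 and 0.637 CPM in untreated PGCLCs, and Hist1h2ai, an H2A gene, had 0.390, 0.466 and 0.622 CPM in BPA PGCLCs and 1.12, 0.373 and 0.956 CPM in untreated PGCLCs. Both overlap. Counted over the tested genes, the BPA and untreated libraries did not overlap in 17 with lower values and in 1 with higher values, where the same held for 17.3% and 17.9% of all genes tested. Genes tested only because of their untreated level could add to the lower count alone. Without BPA replicate 3 these numbers were 19 and 2, against 25.4% and 26.4%.

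Linker histone genes had values in both directions. Hist1h1c (ENSMUSG00000036181, chr13:23738808-23740367, plus strand), the most abundant H1 gene here, had 15.5, 13.7 and 6.56 CPM in BPA PGCLCs and 5.26, 7.03 and 4.59 CPM in untreated PGCLCs. BPA replicates 1 and 2 stood well above all untreated libraries and BPA replicate 3 lay among them. Its log2 change was 1.10 ± 0.33 and missed the threshold (adjusted p = 0.0649, edgeR). It passed at 0.00622 without BPA replicate 3, and over all alternatives its adjusted p ran from 0.00622 to 0.243.

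The H1 gene Hist1h1a had 0.877 and 1.26 CPM in BPA PGCLCs, with 1 library unlisted, and 3.79, 3.89 and 1.59 CPM in untreated PGCLCs. Hist1h1e, another H1 gene, had 0.910, 0.765 and 1.81 CPM in BPA PGCLCs and 2.74, 3.48 and 2.99 CPM in untreated PGCLCs. Both were lower in every BPA library than in any untreated one without passing the test. Hist1h1c made up most of the H1 sum in BPA PGCLCs. The testis linker histone gene Hist1h1t was listed in 1 library, untreated PGCLC replicate 1, at 0.542 CPM.

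Of the 4 core histone genes with positive values, Hist1h2bc (chr13:23684199-23692908, plus strand) alone had groups that did not overlap. It is an H2B gene whose annotated transcript spans introns and lacks the stem-loop. It had 4.29, 4.59 and 3.42 CPM in BPA PGCLCs and 2.36, 2.55 and 3.19 CPM in untreated PGCLCs. Every BPA library was above every untreated one, and the log2 change of 0.62 ± 0.27 missed the threshold (adjusted p = 0.173, edgeR). With Hist1h1c and Hist1h2bc set aside, a choice made after seeing their values, the sum was 19.7 ± 1.14 CPM in BPA PGCLCs and 59.7 ± 14.2 CPM in untreated PGCLCs.

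**Figure D3:**
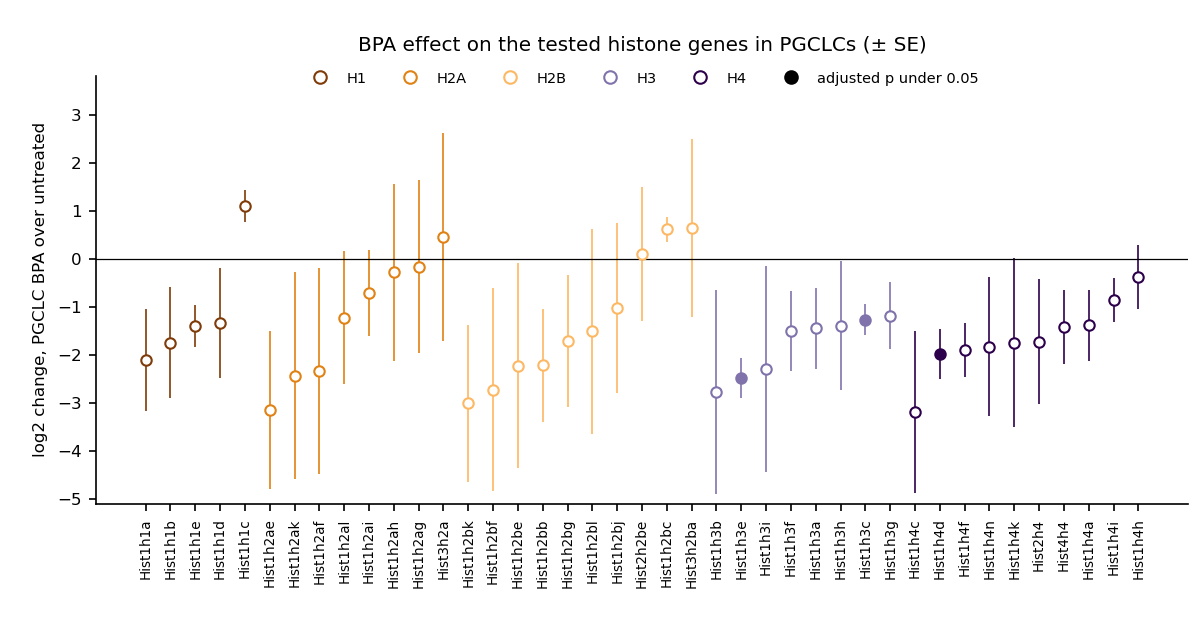
Log2 change of BPA over untreated PGCLCs (vertical axis) with its standard error for the 41 tested histone genes, coloured by family and ordered by change within it; filled circles passed an adjusted p under 0.05. The 3 filled circles are Hist1h3e, Hist1h3c and Hist1h4d, and 36 of 41 circles lie below 0.

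Genes were also grouped by how the annotated transcript ends. The ratio of BPA to untreated sums in PGCLCs was 0.345 for genes that run on 21 to 100 bases past the stem-loop. It was 0.612 for those that run on further and 0.543 for genes without the pattern. The second class holds Hist1h1c, with means of 11.9 CPM with BPA and 5.63 CPM untreated, in class sums of 21.1 and 34.4 CPM. The third holds Hist1h2bc, with 4.10 and 2.70 CPM, in class sums of 8.42 and 15.5 CPM. These 2 genes raise the ratios of their classes, so the classes cannot be ranked by them. The median log2 change of the tested genes was -1.63, -1.45 and -1.51 in the same order, with the same limit as the family medians.

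Several other values differed along with the histone sum in PGCLCs. A list of 23 RNAs that carry no poly(A) tail, of which 11 are in the files, summed to 31.9, 20.5 and 15.9 CPM in BPA PGCLCs and 117, 129 and 103 CPM in untreated PGCLCs. Of the 6 that could be tested, 5 fell, among them the 5.8S ribosomal RNA gene n-R5-8s1, at a log2 change of -3.60 ± 0.24 (adjusted p = 0.000338, edgeR), and the transcription regulator 7SK (Rn7sk), at -1.70 ± 0.26 (adjusted p = 0.00643, edgeR). The sum of these RNAs was thus lower in the same 3 libraries as the core histones, and by a larger factor. Most of the untreated sum was n-R5-8s1 alone, at 62.9, 78.3 and 52.1 CPM, against 7.05, 4.16 and 4.61 CPM in BPA PGCLCs. The larger factor therefore rests largely on that RNA. Their part in the result was not tested.

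The summed level of endoderm markers was higher with BPA. The 17 markers summed to 5274 to 11136 CPM in BPA PGCLCs and 1022 to 1596 CPM in untreated PGCLCs. Of the 17, 9 were called higher and 0 lower. Afp, a yolk sac and fetal liver serum protein, had 2527, 2486 and 1365 CPM in BPA PGCLCs and 46.4, 24.5 and 29.2 CPM in untreated PGCLCs. Not every marker separated the groups. Lama1 had 107.9, 114.5 and 50.2 CPM in BPA PGCLCs and 158.3, 111.6 and 105.4 CPM in untreated PGCLCs. Sox7 had 19.1, 18.6 and 2.29 CPM in BPA PGCLCs and 10.8, 8.52 and 9.01 CPM in untreated PGCLCs. BPA replicate 3, with the lowest endoderm sum of its group, also had the lowest Hist1h1c level of its group. Germ cell markers were lower: the 9 summed to 1097 to 1240 CPM in BPA PGCLCs and 1330 to 1508 CPM in untreated PGCLCs, and 4 fell (Prdm1, Tfap2c, Prdm14 and Ifitm3), by 0.32 to 0.65 on the log2 scale. Of 10 trophoblast markers 3 rose and 1 fell, and their sum was 655 to 965 CPM in BPA PGCLCs and 458 to 567 CPM in untreated PGCLCs. The part of any of these marker levels in the histone values was not tested.

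**Figure D4:**
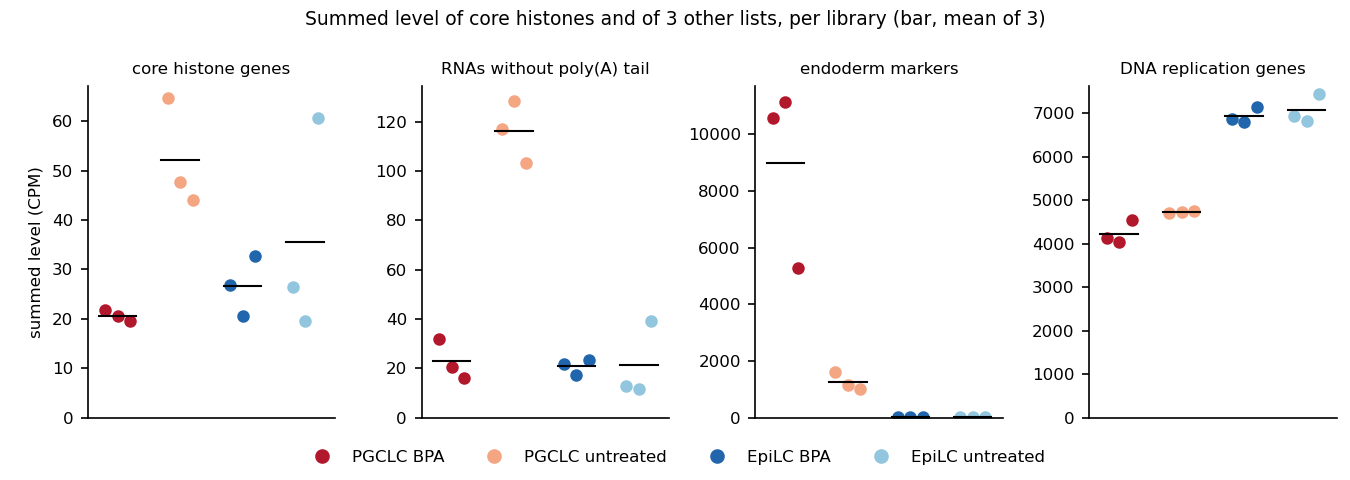
Summed level in CPM (vertical axes, each with its own scale) of the core histone genes and of 3 other gene lists in each library, with a bar at the group mean. In PGCLCs the core histones and the RNAs without a poly(A) tail are lower with BPA and the endoderm markers are higher. DNA replication genes lie at 4033 to 4540 CPM in BPA PGCLCs and 4700 to 4753 CPM in untreated PGCLCs.

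Genes of S phase and of histone mRNA were also counted. Of all genes tested, 5.72% fell, 8.13% rose and 13.9% changed in either direction. Of 28 DNA replication genes, 4 fell with BPA in PGCLCs and 0 rose. The flap endonuclease gene Fen1 had a log2 change of -1.39 ± 0.24 (adjusted p = 0.0098, edgeR) and the ribonucleotide reductase gene Rrm2 -0.56 ± 0.08 (adjusted p = 0.0042, edgeR). The others were Gins1, for a part of the replication helicase, and Pcna, for the sliding clamp of DNA polymerases. The median over the 28 was -0.14. Their sum was 4033 to 4540 CPM in BPA PGCLCs and 4700 to 4753 CPM in untreated PGCLCs, which do not overlap. Of 18 mitosis genes 5 fell, with Cdk1 at -0.40 ± 0.06, and 0 rose. They summed to 4886 to 5201 CPM in BPA PGCLCs and 5561 to 5655 CPM in untreated PGCLCs, again without overlap. The part of these levels in the histone values was not tested.

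Of 19 genes for histone mRNA transcription, processing and decay, 1 fell and 3 rose. The cap-binding gene Ncbp2 fell by 0.48 on the log2 scale, and Zcchc6, Sympk and Upf1 rose by 0.27 to 0.38. Slbp had 61.4, 63.1 and 62.4 CPM in BPA PGCLCs and 64.5, 67.3 and 62.5 CPM in untreated PGCLCs, which overlap. Of 9 histone chaperone genes, Rbbp4 and Hat1 fell, by 0.34 and 0.30 on the log2 scale, and 0 rose.

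In EpiLCs no BPA effect on the histone genes was found. Of 18 tested, 0 passed the threshold in edgeR and 0 had an unadjusted p under 0.05; 0.0% of the 15252 genes tested were called, and 118 of them had an unadjusted p under 0.05. DESeq2 called 16 genes, none of them a histone gene. The log2 change was negative in 16 of the 18 histone genes tested, with a median of -0.35. Over all genes tested, 49.7% were negative and the median was 0.002. No histone gene separated the groups, where 3.23% of all genes tested were lower and 2.45% higher without overlap. Without untreated EpiLC replicate 3, 2 histone genes (Hist1h2bk and Hist3h2ba) were higher and 0 lower without overlap, against 6.71% and 8.79% of all genes. The sum was 35.3, 27.0 and 41.6 CPM in BPA EpiLCs and 35.9, 27.3 and 74.4 CPM in untreated EpiLCs. The untreated library that stands apart holds the high value: with it the ratio of means was 0.755, and without it the untreated mean was 31.6 CPM, below the BPA mean of 34.6 CPM. The same library had the highest sum of RNAs without a poly(A) tail among EpiLCs, 39.2 CPM against 11.6 to 23.2 CPM in the other 5.

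The effect of BPA in PGCLCs minus that in EpiLCs was not past the threshold for any of 39 genes tested, where 1.32% of all genes were called, 1.01% with a higher and 0.312% with a lower effect in PGCLCs. The smallest adjusted p was 0.167, for Hist1h1c, at a log2 difference of 1.47 ± 0.47 (edgeR); 4 of the 39 had an unadjusted p under 0.05. With DESeq2, 897 of all genes passed in this contrast, none of them a histone gene. With unlisted genes at 9 counts, 3 histone genes were called, all with a lower effect in PGCLCs: Hist1h2ae, Hist1h2bb and Hist1h4f (adjusted p = 0.0429, 0.0367 and 0.0388, edgeR). Whether the BPA effect on these 3 genes differs between the stages thus depends on how unlisted genes are set, and for the others a difference was not shown.

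Between the stages, histone genes changed in both directions. In untreated cells 11 of 39 tested were called higher in PGCLCs than in EpiLCs and 1 lower, where 30.4% of all 17608 genes tested were called higher and 25.2% lower. In BPA-exposed cells 8 were higher and 3 lower, against 32.5% and 25.0% of all genes, 57.5% in either direction. Several of the higher ones were unlisted in all EpiLC libraries, which were shallower, and such a gene had to be higher to be tested. With unlisted genes at 9 counts, 1 gene was called higher and 7 lower with BPA. The median log2 change over the tested genes was 1.41 in untreated cells, or 1.01 with 11 such genes at the lowest fold that 9 counts per library allows, and 0.73 in BPA-exposed cells, where it turns to -0.44 with 14 genes at that fold. The summed level overlapped between stages, with a ratio of 1.48 in untreated and 1.03 in BPA-exposed cells. By family, the H4 and H2B sums were lower in BPA PGCLCs than in BPA EpiLCs without overlap, at ratios of 0.482 and 0.624. The H1 sum was higher without overlap, at a ratio of 1.915. With Hist1h1c set aside after its values were seen, the other H1 genes were lower without overlap, at 0.559. The H2A and H3 sums overlapped.

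The gene with the highest level per kilobase, Hist1h4i (ENSMUSG00000060639, chr13:22040636-22041362, minus strand), an H4 gene, was lower in PGCLCs. It had 2.23, 2.52 and 4.46 CPM in untreated PGCLCs and 8.16, 7.0 and 19.4 CPM in untreated EpiLCs. With BPA it had 1.88, 2.23 and 0.933 CPM in PGCLCs and 10.8, 8.06 and 11.9 CPM in EpiLCs. No PGCLC library reached the lowest EpiLC library. The log2 change was -1.90 ± 0.43 in untreated cells (adjusted p = 0.00279, edgeR) and -2.62 ± 0.45 with BPA (adjusted p = 0.000377, edgeR).

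Some H2B genes went the same way, and 2 of them did so in both arms. Hist1h2bj had 0.988 and 1.43 CPM in untreated PGCLCs, with 1 library unlisted, and 3.36, 2.15 and 5.85 CPM in untreated EpiLCs. Hist3h2ba had 0.956 CPM in 1 untreated PGCLC library, with the others unlisted, and 1.39, 1.23 and 2.65 CPM in untreated EpiLCs. Both lay below all EpiLC libraries without a call by the test, and are named because they and Hist1h4i were the 3 genes lower without overlap in untreated cells, where 28.2% of all genes tested were. Hist1h2bk had 0.455 CPM in BPA PGCLC replicate 1, with 2 libraries unlisted, and 1.74, 1.89 and 1.67 CPM in BPA EpiLCs, and was called lower in that arm at a log2 change of -3.51 ± 1.15 (adjusted p = 0.0209, edgeR). Hist1h1a was the other gene called lower there, at -2.30 ± 0.81 (adjusted p = 0.0284, edgeR). It had 0.877 and 1.26 CPM in BPA PGCLCs, with 1 library unlisted, and 3.48, 3.29 and 3.69 CPM in BPA EpiLCs. The call of Hist1h1a was kept in 2 of the 6 fits that left out 1 library.

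Hist1h1c was higher in PGCLCs in both arms. In BPA EpiLCs it had 1.91, 2.06 and 2.43 CPM and in untreated EpiLCs 2.87, 2.06 and 3.55 CPM, below every PGCLC library of the same arm. The log2 change was 1.00 ± 0.33 in untreated cells (adjusted p = 0.0211, edgeR) and 2.47 ± 0.34 with BPA (adjusted p = 6.4e-05, edgeR). Of the 6 fits that left out 1 library, 3 kept the call in untreated cells and 6 kept the call with BPA.

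The H3 gene Hist1h3e, at 0.628 and 1.39 CPM in untreated EpiLCs with 1 library unlisted, was higher in untreated PGCLCs by 3.13 ± 1.07 on the log2 scale (adjusted p = 0.0265, edgeR). This call was kept in 4 of the 6 fits that left out 1 library. Hist1h1e, at 0.807, 0.549 and 0.836 CPM in untreated EpiLCs, was higher by 2.07 ± 0.80 (adjusted p = 0.0432, edgeR), a call that was lost in all 6 fits that left out 1 library. Hist1h4f, Hist1h3g and Hist4h4 were unlisted in all untreated EpiLC libraries and at least 4.48, 3.40 and 2.70-fold higher in untreated PGCLCs. For Hist1h2ai and Hist1h4n, also unlisted in untreated EpiLCs, the groups overlap once an unlisted gene is allowed 9 counts. In all, 11 genes were higher without overlap in untreated PGCLCs (30.3% of all genes tested) and 3 in BPA PGCLCs, Hist1h1c, Hist1h2bc and Hist1h4h (36.7%). Without untreated EpiLC replicate 3 the first number was 21, against 35.7%.

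**Figure D5:**
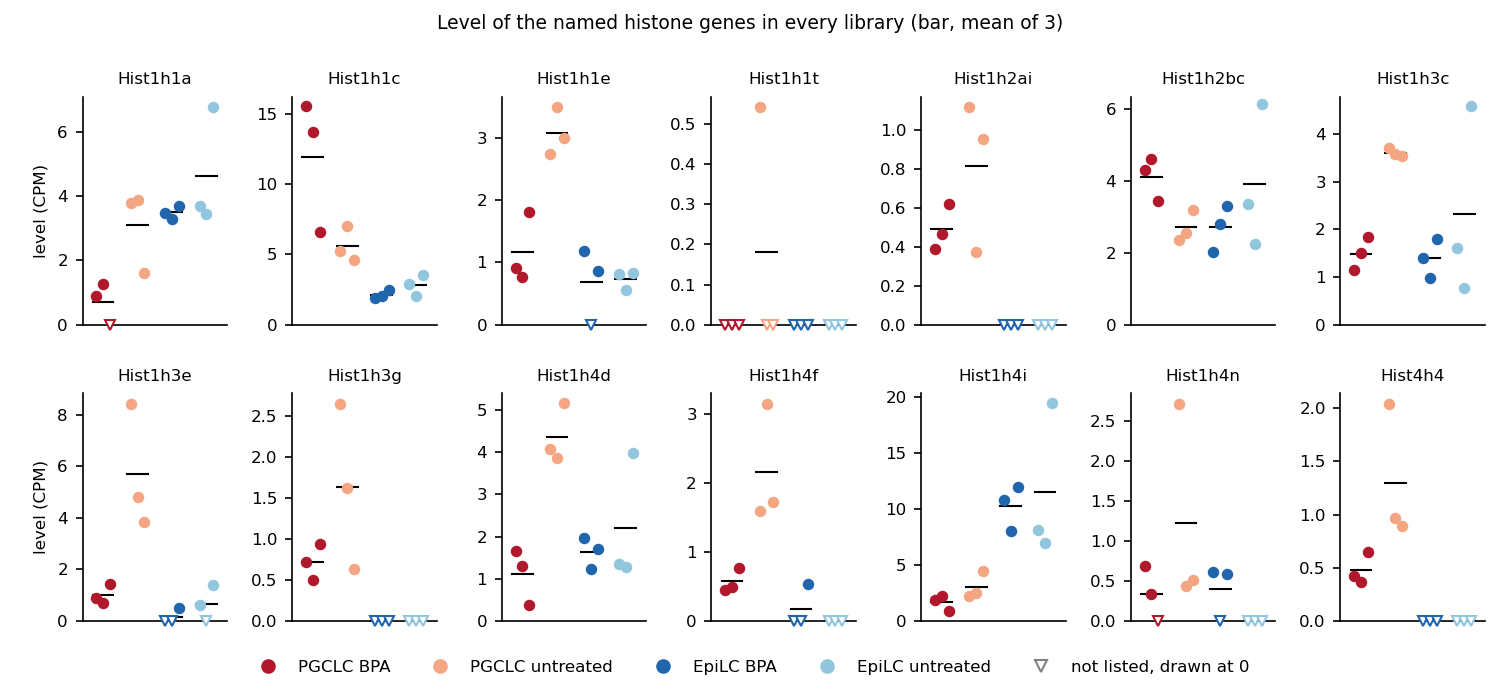
Level in CPM (vertical axes, each with its own scale) of 14 histone genes in every library, with a bar at the group mean and open triangles where the library does not list the gene. Hist1h4i is highest in EpiLCs, Hist1h1c in BPA PGCLCs, and Hist1h3e, Hist1h4f and Hist4h4 in untreated PGCLCs.

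Genes of S phase were mostly lower in PGCLCs. Of 28 DNA replication genes, 20 fell and 0 rose in untreated PGCLCs against EpiLCs, and 24 fell and 0 rose with BPA, with Gins2 at -2.62 ± 0.15 and -2.46 ± 0.15 on the log2 scale. Slbp fell in both arms, by 0.95 and 1.02. RNAs without a poly(A) tail were higher in untreated PGCLCs, at 103 to 129 CPM against 11.6 to 39.2 CPM in untreated EpiLCs. With BPA their range of 15.9 to 31.9 CPM in PGCLCs overlapped that of 17.4 to 23.2 CPM in EpiLCs. Mean core histone sums were 52.2 CPM in untreated PGCLCs and 35.6 CPM in untreated EpiLCs, with groups that overlap, and the ratio of 1.47 became 1.12 with unlisted genes at 9 counts. How far tailless RNA contributes to the stage difference was not tested.

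Promoters of the families carry different elements, shown for 1 H1 gene and 1 H3 gene named above. RefSeq promoters (GRCm38.p6, 250 bases before to 50 after the start) matched 46 of the 52 genes, giving 47 promoters, and both strands were searched. The octamer ATTTGCAT was found in 6 of 12 H2A and 4 of 11 H2B promoters and in no other family, against 1.74% of all promoters. The H1 element AAACACA was found in 5 of 6 H1 promoters, against 7.18% of all. TATAAA was found in 30 of 47 (13.6% of all promoters) and CCAAT in 39 of 47 (37.4% of all), with 3 of 11 in H4. In the sequences, capitals mark these elements on either strand, with CCAAT on the other strand read as ATTGG.
Hist1h1c, chr13:23738557-23738856, plus strand: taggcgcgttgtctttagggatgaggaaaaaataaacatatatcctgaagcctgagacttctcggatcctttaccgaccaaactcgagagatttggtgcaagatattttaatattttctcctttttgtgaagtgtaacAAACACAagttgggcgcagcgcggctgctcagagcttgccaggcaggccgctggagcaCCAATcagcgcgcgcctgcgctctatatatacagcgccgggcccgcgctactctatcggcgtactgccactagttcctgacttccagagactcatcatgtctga
Hist1h3e, chr13:23562336-23562635, minus strand: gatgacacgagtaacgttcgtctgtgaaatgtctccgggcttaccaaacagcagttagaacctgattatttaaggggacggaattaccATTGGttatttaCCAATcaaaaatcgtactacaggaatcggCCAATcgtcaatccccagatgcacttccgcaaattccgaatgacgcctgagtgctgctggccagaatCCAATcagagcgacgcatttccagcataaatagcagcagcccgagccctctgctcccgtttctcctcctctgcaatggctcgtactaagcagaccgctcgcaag
The Hist1h1c promoter holds 1 H1 element and 1 CCAAT, and that of Hist1h3e holds CCAAT on both strands and neither the octamer nor TATAAA. Hist1h1b, Hist1h1d and Hist1h1e hold these 2 elements, and TATAAA as well. They had log2 values of -1.75, -1.33 and -1.39 with BPA in PGCLCs, against 1.10 for Hist1h1c. Hist1h1a, the other H1 gene tested, had -2.10. Only the exact letters TATAAA were searched for, and the Hist1h1c promoter holds the similar run tatata. A link between these elements and the BPA values was not tested. A match is a description and not a binding site.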

How the data were processed

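RNA was sequenced from 12 libraries in 4 groups of 3, named by the sample titles. Per the submitters' processing notes, bcl2fastq 2.19.1.403, FastQC, STAR and HTSeq were used with mm10. The deposited count files hold whole-read counts per Ensembl gene, and genes under 10 counts were left out by the authors. The deposited CPM tables, 1 per stage, equal those counts divided by a constant per library (227862 values, 0 off by more than 0.01 counts). They were normalised separately, so they served in 1 alternative within each stage. Rows without a gene stayed out of library sizes; reads without a feature were 4.42% to 10.7% and ambiguous reads 4.56% to 6.07% of the total.

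Low genes were removed by filterByExpr, libraries were scaled by TMM, and unlisted genes were set to 0. The main test was the quasi-likelihood test of edgeR 4.0.16 in R 4.3.3, with limma 3.58.1 and DESeq2 1.42.0 as alternatives. Adjusted p-values are Benjamini-Hochberg values across the whole table, called below 0.05. Each BPA effect was fitted on the 6 libraries of its stage, and the stage contrasts and the difference between BPA effects on all 12. Levels are CPM from 1 TMM scaling of the 12 libraries. A lowest fold against an unlisted group takes 9 counts per library. The fits were tested on simulated data. Sequences come from GENCODE M21 and RefSeq.

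Genes and lists were chosen with earlier results of these data known. Named with values are, per contrast, called genes averaging at least 1 CPM (up to 6 each way, or the 3 with the smallest p where none is called), the 6 with the highest mean, testis histone genes, and the 3 with the largest stage gap in listing; of other lists, up to 4 called genes with the largest change. Genes named outside this rule are marked as such or answer a count. Alternatives were other scalings, filters and tools, unlisted genes as 9 counts, a replicate block and leaving out each library. Files name 0 further columns of samples.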

Additional observations from a re-analysis of the deposited data

Results flagged for a closer look

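Among the genes set beside the histones, 2 had a BPA effect that differed between the stages in the edgeR test of the difference. For Rrm2, a subunit of ribonucleotide reductase, the effect in PGCLCs minus that in EpiLCs was -0.64 ± 0.12 on the log2 scale (adjusted p = 0.0228). Its level was 199, 194 and 231 CPM in BPA PGCLCs and 321, 310 and 294 CPM in untreated PGCLCs, and 500, 482 and 497 CPM in BPA EpiLCs and 465, 476 and 467 CPM in untreated EpiLCs. For Apob, an apolipoprotein gene used as an endoderm marker, it was 4.11 ± 0.77 (adjusted p = 0.0236). Its level was 3824, 4337 and 2205 CPM in BPA PGCLCs and 197, 129 and 122 CPM in untreated PGCLCs, and at most 3.2 CPM in EpiLCs. No histone gene passed this test. Groups of 3 libraries were too small for a search for single outlying libraries.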

How the results depend on the processing

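Most histone genes had under 100 counts in a library, so depth and the 10-count limit set what could be tested. In BPA against untreated PGCLCs, 3 lower and 0 higher became 5 and 1 with DESeq2, 1 and 0 with limma voom and with 1 fit of all 12 libraries, 9 and 0 with unlisted genes as 9 counts and with limma-trend on deposited CPM plus 1, and 1 and 1 with a replicate block; 1 gene was higher with no low-count filter and with at least 1 CPM in 3 libraries. Leaving out single libraries gave 0 to 5 lower, 0 to 1 higher and 668 to 3206 of all genes.

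Between untreated stages, 11 higher became 5 at 1 CPM and 7 with the replicate block, and 1 lower became 3 with voom and with unlisted genes as 9; leaving out single libraries gave 5 to 15 higher, 1 to 2 lower and 8687 to 9593 of all genes. With BPA, 8 higher became 2 at 1 CPM, 5 with the block, 3 within the 6 libraries of that arm and 1 with unlisted genes as 9, and 3 lower became 5 with voom and 7 with unlisted genes as 9; leaving out single libraries gave 4 to 7 higher, 2 to 3 lower and 8565 to 9380 of all genes. For the difference between BPA effects, all genes called went to 897 with DESeq2, 141 with voom, 150 with the block and 515 with unlisted genes as 9, where 3 histone genes were lower; leaving out single libraries gave 83 to 767 of all genes and 0 to 1 histone genes each way. In EpiLCs DESeq2 called 16 genes, and leaving out single libraries gave 0 throughout.

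Sums rested on the treatment of unlisted genes: with 9 counts for each, the mean was 41.9 CPM in BPA PGCLCs and 54.1 CPM in BPA EpiLCs. Leaving out single libraries gave 33.1 to 39.1 CPM in BPA PGCLCs, 60.5 to 74.3 in untreated PGCLCs, 31.1 to 38.4 in BPA EpiLCs and 31.6 to 55.2 in untreated EpiLCs. Uncalled log2 changes that turned were, in EpiLCs with voom, Hist1h3c (0.061), Hist1h4d (0.095) and Hist1h4i (0.046) and, with unlisted genes as 9, Hist1h1e (0.38). The called stage changes of Hist1h2ai and Hist4h4 with BPA turned to -0.051 and -0.086 with unlisted genes as 9. Leaving out single libraries turned uncalled values in EpiLCs (Hist1h1e -0.68 to 0.49, Hist1h3c -1.05 to 0.26, Hist1h4d -0.61 to 0.34, Hist1h4i -0.37 to 0.46), between BPA-exposed stages (Hist1h3c -0.14 to 0.31, Hist1h4n -1.28 to 0.31) and in the difference of effects (Hist1h3e -1.77 to 4.56). The cause was not tested. Replicate numbers were not taken to pair the libraries, since same-numbered ones correlated at -0.051 to 0.247 in their deviations from group means.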
